A study of Mus musculus with 6 samples.

Results

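Zinc finger protein genes with the symbol Zfp and a number were measured by RNA sequencing of cells in mouse bronchoalveolar lavage fluid, the saline wash of airways and alveoli. Of 366 such rows in the table of 22800 genes, 236 were kept, chosen by their measured FPKM. These reached 1 FPKM (fragments per kilobase of transcript, scaled to the fragments of the library) in at least 3 of the 6 libraries, and Zfp36, an mRNA decay factor of another finger type, was left out. The mice had received 20 µg of sulfatide, a sulfated glycolipid of myelin, into the peritoneal cavity (n = 3 libraries, replicates 1, 2 and 3) or vehicle (n = 3, replicates 2, 3 and 4). The labels give no strain, age, sex or interval after injection, and they do not say whether either group had undergone the lung ischemia and reperfusion that the title of the series names. Nothing in them ties a library to an animal of its own, so the p-values rest on the variation among 6 libraries, part or all of which could be technical.

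Zinc finger proteins of the classical type hold a zinc ion in each finger with a pair of cysteines and a pair of histidines, and rows of fingers read out DNA or RNA sequence. Many mouse members carry a KRAB domain, which binds Trim28 and through it the histone methyltransferase Setdb1, and they silence endogenous retroviruses and other repeats. Members without the domain include promoter-binding factors, RNA-binding proteins, ubiquitin ligases and ribosome maturation factors. Genes with the domain often lie in tandem clusters that arose by duplication.

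Summed FPKM were 1217971 to 1249691 in the sulfatide libraries and 1126779 to 1168474 in the vehicle libraries, and depth relative to vehicle replicate 2, estimated from ratios of low values, was 0.85 to 1.2. The acute phase gene Saa3 took up much of the extra sum, with 79439 to 86047 FPKM in sulfatide libraries and 28026 to 29339 FPKM in vehicle libraries. The general macrophage markers Adgre1 (385 to 502 FPKM in sulfatide and 492 to 570 in vehicle libraries) and Cd68 were high in every library. Of the 8 general macrophage markers, all tested, 0 rose and 1 fell. Among the low ones, Itgax was at 2.05 to 2.43 FPKM in sulfatide and 3.57 to 5.78 FPKM in vehicle libraries, and Mertk at 2.85 to 4.22 and 2.13 to 4.12 FPKM. The alveolar macrophage marker Siglecf was at 0.67 to 0.9 FPKM in sulfatide and 0.08 to 0.26 FPKM in vehicle libraries. Of 5 alveolar macrophage markers tested, 1 passed: Plet1 fell, at 3.19, 5.04 and 1.95 FPKM in sulfatide libraries and 42.0, 49.4 and 27.6 FPKM in vehicle libraries. Marco, of the same list, was at 59.96 to 182.65 FPKM in sulfatide and 81.22 to 104.08 FPKM in vehicle libraries. Chil3 was at 21.88 to 45.62 and 19.32 to 30.45 FPKM. Both had overlapping groups and did not pass. Ear2, Pparg and Car4 did not exceed 3.35 FPKM. Of the 10 alveolar macrophage markers 3 (Fabp1, Krt79 and Cidec) were listed at 0 in every library, as were Cd3e of T cells and Sftpc of lung epithelium. The 8 markers of dividing cells summed to 424 to 809 FPKM in sulfatide and 209 to 452 FPKM in vehicle libraries, and 3 of them rose. The 8 neutrophil markers summed to 405 to 565 FPKM in sulfatide and 134 to 184 FPKM in vehicle libraries, and of 5 tested S100a8 and Mmp8 rose. S100a8 made up most of the sum, at 361 to 471 FPKM in sulfatide and 91.7 to 114 FPKM in vehicle libraries. S100a9 and Ngp overlapped, Camp was at 3.22 to 3.91 FPKM in sulfatide and 4.17 to 5.62 FPKM in vehicle libraries without passing, and Ly6g, Cxcr2 and Retnlg did not exceed 0.45 FPKM. Whether these differences in cell type markers take part in the values below was not tested.

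Most members were low, and most did not pass the test of sulfatide against vehicle. The median of their mean levels was 4.06 FPKM, against 17.6 FPKM for all 10405 genes tested under the same filter, and 24 members averaged 20 FPKM or more, 76 between 5 and 20 FPKM, and 136 under 5 FPKM. Of the 236 members 212 reached 1 FPKM in all 6 libraries and 19 in 4 or 5. A further 5 did so in exactly 3, of which 1 passed through the sulfatide libraries alone, so its place on the list and its difference are not independent. Nearest inside the threshold were Zfp267, Zfp418 and Zfp951 (1.02, 1.02 and 1.06 FPKM in the library ranked 3 from the top), and nearest outside were Zfp398, Zfp41 and Zfp618 (0.94, 0.93 and 0.92 FPKM). Zfp618 was at 1.34, 0.93 and 0.92 FPKM in sulfatide libraries, against 0.05, 0.12 and 0.33 FPKM in vehicle libraries, and was not tested. Among the 129 rows below the threshold 28 were listed at 0 throughout.

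Summed over the group, levels overlapped between treatments. In bulk RNA, fewer cells of a type and less RNA per cell cannot be told apart. Their mean log2(FPKM + 1) was 2.60, 2.53 and 2.57 in sulfatide replicates 1, 2 and 3, against 2.54, 2.57 and 2.52 in vehicle replicates 2, 3 and 4. Their summed FPKM was 2114, 1933 and 2044 in sulfatide and 1955, 2037 and 1968 in vehicle libraries. As a share of each library's summed FPKM this was 0.169, 0.159 and 0.165% in sulfatide libraries and 0.172, 0.174 and 0.175% in vehicle libraries, without overlap; the summed FPKM of the sulfatide libraries were larger. The median log2 fold change (sulfatide minus vehicle) was 0.04 over the members and 0.04 over all genes tested, and its sign depended on scaling: after rescaling each library to the same sum (TPM) the medians were -0.04 and -0.06. With it, the number of members with a positive difference was 142 of 236 on deposited FPKM and 86 after rescaling.

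The comparison of sulfatide with vehicle used limma on log2(FPKM + 1), with Benjamini-Hochberg adjustment over all 10405 genes and a call at an adjusted p below 0.05. Of the members 2 rose and 9 fell, 4.66% in all, against 18.7% of all genes tested. With array weights, which let libraries differ in reliability, 24 members were higher and 14 lower, 16.1% in all, against 36.3% of all genes, so both the count and the balance of directions depended on that choice. By direction, 0.847% of members and 8.31% of all genes were higher, and 3.81% of members and 10.4% of all genes were lower. At an unadjusted p below 0.05 the shares were 12.7% of members (30 genes) and 33.8% of all genes. Groups did not overlap for 23 members that were higher and 22 that were lower in sulfatide, 9.75% and 9.32% of members, against 18.6% and 18.3% of all genes. Within bands of mean level, 6 of 136 members under 5 FPKM were called (4.41%, against 12.7% of all genes there), 1 of 76 from 5 to under 20 FPKM (1.32%, against 17%) and 4 of 24 at 20 FPKM or more (16.7%, against 22.7%). Members were set against a background that contains them, and no test of the difference in shares was made.

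Differences of the members also spread less widely. Their log2 fold changes ran from -1.31 to 0.61 with quartiles of -0.08 and 0.14, whereas those of all genes ran from -4.78 to 4.4 with quartiles of -0.16 and 0.22. The median standard error was 0.13 for members and 0.12 for all genes. For 195 members (82.6%) the 95% interval of the difference lay within 1.5-fold in either direction on the log2(FPKM + 1) scale, as it did for 66.6% of all genes. That scale compresses the differences of low genes, and the members are mostly low. Ratios of group mean FPKM reached 1.5-fold for 8 members (3.39%) and for 14.4% of all genes.

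**Figure D1:**
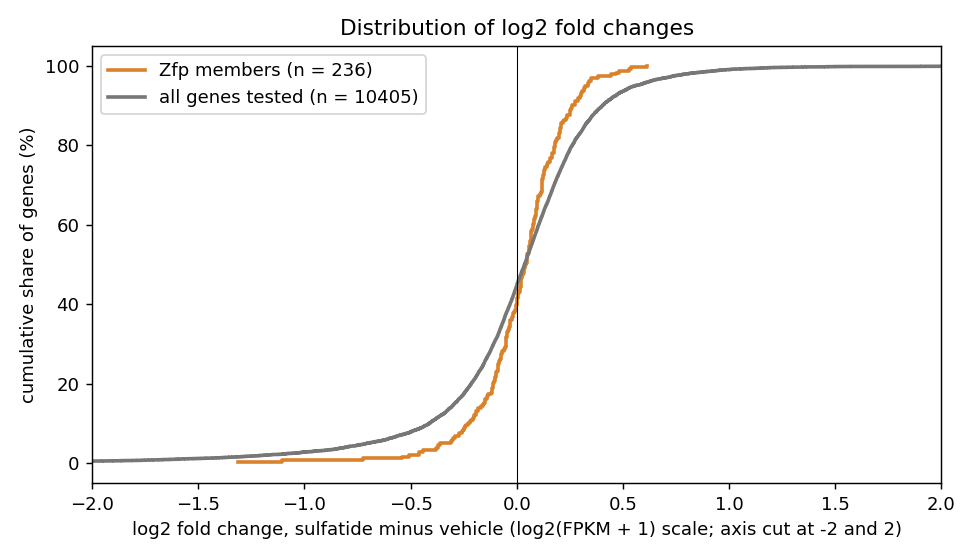
Cumulative share of genes (vertical axis, %) at or below each log2 fold change, sulfatide minus vehicle (horizontal axis, log2(FPKM + 1) scale, shown from -2 to 2), for the 236 Zfp members (orange) and all 10405 genes tested (grey). The orange curve is the steeper one, with quartiles of -0.08 and 0.14, against -0.16 and 0.22 for all genes.

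**Figure D2:**
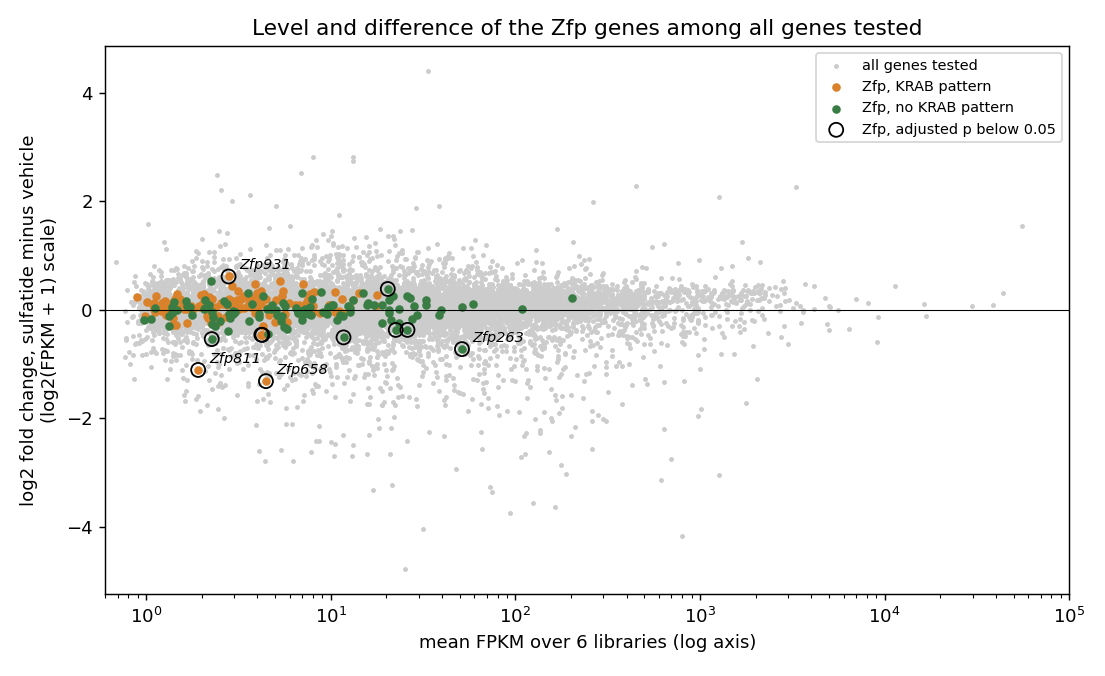
Log2 fold change, sulfatide minus vehicle (vertical axis), against mean FPKM over 6 libraries (horizontal log axis) for all genes tested (grey) and for Zfp members with a KRAB pattern (orange) or without (green), with rings around the 11 that passed the test. The members lie in the lower range of levels, and Zfp658, Zfp811 and Zfp263 lie lowest among them.

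On the log2(FPKM + 1) scale the lowest values were those of Zfp658, Zfp811 and Zfp263, which passed whichever library was left out. Zfp658, a protein with 21 fingers and a KRAB pattern whose human counterpart has been linked to the transcriptional response to zinc, was at 2.15, 2.41 and 1.81 FPKM in sulfatide libraries, against 6.55, 7.87 and 5.92 FPKM in vehicle libraries. Every sulfatide library was below every vehicle library, and the mean was 3.19-fold lower in sulfatide (log2 fold change -1.31 ± 0.14 SE, adjusted p = 0.00032). Zfp811, another KRAB member with 13 fingers, was at 1.01, 1.13 and 0.44 FPKM in sulfatide libraries, against 2.58, 3.36 and 2.95 FPKM in vehicle libraries. Its mean was 3.45-fold lower (log2 fold change -1.11 ± 0.17, adjusted p = 0.0025), with sulfatide replicate 3 the lowest. Zfp263, whose human counterpart represses genes of heparan sulfate synthesis, was the only called member among the 6 with the highest mean levels. It was at 38.0, 35.4 and 42.2 FPKM in sulfatide libraries, against 67.1, 62.0 and 63.3 FPKM in vehicle libraries, a mean 1.66-fold lower without overlap (log2 fold change -0.72 ± 0.09, adjusted p = 0.00093).

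The other 6 members that fell also had groups that did not overlap. Zfp523, which corresponds to human ZNF76 and is a close relative of the promoter factor Zfp143, was at 1.59, 1.71 and 1.68 FPKM in sulfatide libraries and 2.74, 3.06 and 2.80 FPKM in vehicle libraries (1.73-fold lower, log2 fold change -0.54 ± 0.11, adjusted p = 0.0127), and it passed whichever library was left out. By the ratio of mean FPKM it fell slightly more than Zfp263, and with a pseudocount of 0.1 their log2 fold changes were -0.75 for Zfp523 and -0.74 for Zfp263. Zfp131, a transcription factor with a BTB domain, averaged 19.5 ± 0.618 FPKM in sulfatide and 25.5 ± 0.772 FPKM in vehicle libraries (SD, n = 3 each, adjusted p = 0.0208). Zfp800 averaged 9.48 ± 0.782 FPKM in sulfatide and 13.95 ± 1.84 FPKM in vehicle libraries (adjusted p = 0.023), and Zfp513, whose human counterpart is needed in the retina, averaged 22.5 ± 0.803 FPKM in sulfatide and 29.5 ± 2.81 FPKM in vehicle libraries (adjusted p = 0.034). The KRAB member Zfp719 averaged 3.39 ± 0.402 FPKM in sulfatide, against 5.02 ± 0.267 FPKM in vehicle libraries (adjusted p = 0.0284). Zfp945, with 18 fingers and a KRAB pattern, averaged 3.43 ± 0.502 FPKM in sulfatide and 5.08 ± 0.523 FPKM in vehicle libraries (adjusted p = 0.0419). Without sulfatide replicate 1, sulfatide replicate 3 or vehicle replicate 2, the adjusted p was 0.0803, 0.0683 and 0.0914 for Zfp131, 0.0814, 0.0598 and 0.103 for Zfp800, 0.113, 0.0853 and 0.142 for Zfp513, 0.0997, 0.0968 and 0.114 for Zfp719, and 0.079, 0.0691 and 0.151 for Zfp945. Without vehicle replicate 4 it was 0.0808 for Zfp800, 0.104 for Zfp513, 0.071 for Zfp719 and 0.0534 for Zfp945. Without sulfatide replicate 2 it was 0.0557 for Zfp513 and 0.0875 for Zfp945, and without vehicle replicate 3 it was 0.0764 for Zfp945.

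Exons of some of these genes overlap genes on the opposite strand in GENCODE M21 (mm10): 554 bases of Zfp523, 163 bases of Zfp513 with Snx17 and 119 bases of Zfp800. The libraries were strand-specific per the labels' protocols, but whether the counting used the strand is not given in the sources used here, so reads of these partners cannot be told apart with certainty. Larger overlaps of this kind occur in genes named below that did not pass: 1627 of 2088 exon bases of Zfp593 with E130218I03Rik and 2719 of 10429 of Zfp106 with Gm26899. For Zfp335 it was 1341 bases, summed over partners such as Pcif1. Across the members 60 had such an overlap on the opposite strand and 25 with another gene on their own strand.

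Both rises were modest and depended on the libraries included. Zfp277, which brings Polycomb proteins to the cell cycle inhibitor locus Ink4a/Arf in mouse fibroblasts, was at 23.9, 22.3 and 23.2 FPKM in sulfatide libraries, against 16.98, 19.1 and 16.5 FPKM in vehicle libraries. The groups did not overlap and the mean was 1.32-fold higher (log2 fold change 0.38 ± 0.10, adjusted p = 0.0263). The KRAB member Zfp931 was at 4.52, 2.71 and 3.55 FPKM in sulfatide libraries, against 2.62, 1.72 and 1.64 FPKM in vehicle libraries, with sulfatide replicate 2 just above vehicle replicate 2 (1.80-fold higher, adjusted p = 0.0471). After rescaling to TPM the adjusted p was 0.0625 for Zfp277 and 0.0719 for Zfp931, so that 0 members rose and 11 fell on that scale, and after quantile normalization it was 0.0534 for Zfp931. Without sulfatide replicates 1 and 3 in turn the adjusted p was 0.093 and 0.0863 for Zfp277, and 0.153 and 0.11 for Zfp931. Without vehicle replicate 4 it was 0.0868 for Zfp277 and 0.144 for Zfp931, without vehicle replicate 2 it was 0.104 for Zfp277, and without vehicle replicate 3 it was 0.0811 for Zfp931. Of the stretches of 100 bases in the longest Zfp931 transcript, 6.08% also occur in transcripts of other genes such as Zfp970, so some of its reads may be divided between them. On all 236 members the number called was 4, 15 and 4 without sulfatide replicates 1, 2 and 3 in turn (1.69, 6.36 and 1.69%). It was 5, 14 and 5 without vehicle replicates 2, 3 and 4 (2.12, 5.93 and 2.12%). The share of all genes called moved as well, to 10.6, 18.6 and 10.9% without sulfatide replicates 1, 2 and 3. Without vehicle replicates 2, 3 and 4 it was 8.75, 24.3 and 11.5%.

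**Figure D3:**
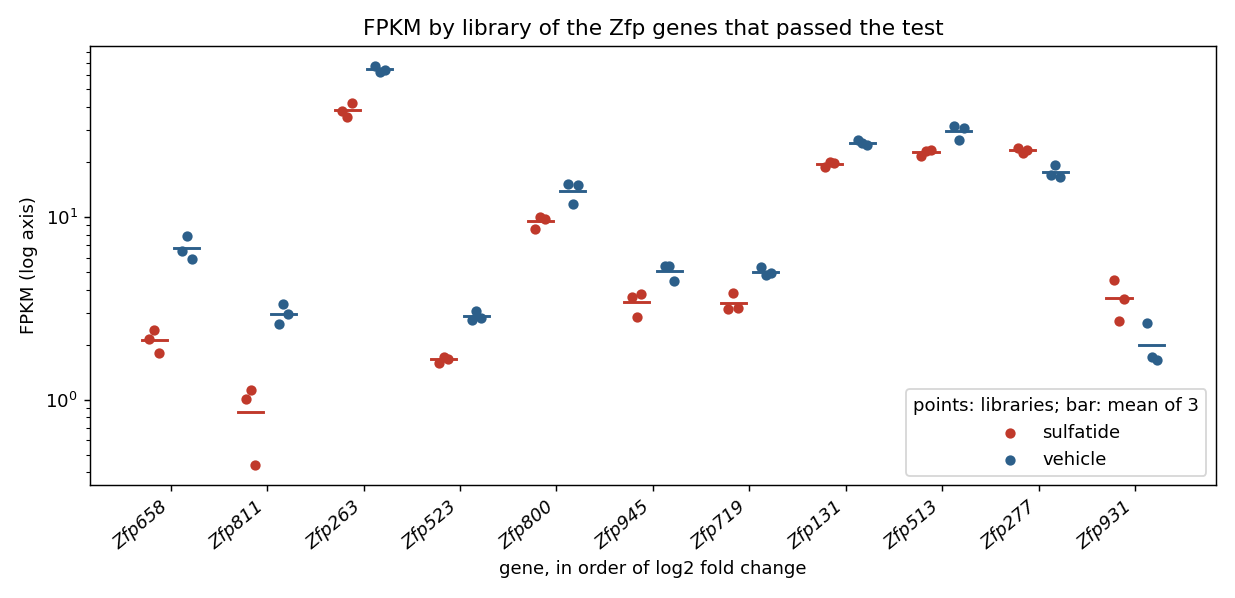
FPKM (vertical log axis) of the 11 Zfp genes that passed the test, in order of log2 fold change, with sulfatide libraries in red on the left of each pair and vehicle libraries in blue (points are libraries, bars the means of 3). Zfp658 is at 1.81 to 2.41 FPKM in sulfatide and 5.92 to 7.87 FPKM in vehicle libraries, and no gene shown has overlapping groups.

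Zfp658 and Zfp719 are neighbours on the plus strand of chromosome 7, at 43562256 to 43575461 and 43579610 to 43593235 (mm10), with starts 17.4 kb apart, and both fell. This neighbourhood was looked at after the values were seen. Within 200 kb of the pair 22 rows of the table were placed, with Siglecl1 and Siglece given the same start. Of these rows 7 were tested and 6, this pair included, were lower in sulfatide, against 10.4% of all genes. The others were Cd33, Siglece, the tRNA thiolation gene Ctu1 and Klk9. Cd33 and Siglece are receptors of myeloid cells that bind sialic acid. Cd33 was at 34.4, 34.95 and 36.4 FPKM in sulfatide and 45.9, 56.4 and 43.8 FPKM in vehicle libraries. Ctu1 was at 8.27, 9.38 and 6.97 FPKM in sulfatide libraries, against 14.4, 16.5 and 16.6 FPKM in vehicle libraries. Etfb, a subunit of the mitochondrial electron transfer flavoprotein, was the tested gene that did not pass (adjusted p = 0.757). Zfp715, the next member of the cluster, was at 4.09, 5.24 and 4.08 FPKM in sulfatide and 5.93, 6.12 and 4.27 FPKM in vehicle libraries (adjusted p = 0.321).

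The promoters of Zfp658, Zfp719, Zfp263 and Zfp811 are shown because these genes changed and Zfp658 and Zfp719 lie side by side. Each window runs from 250 bases before to 50 bases after a RefSeq transcription start (GRCm38.p6), at chr7:43562120-43562419 (plus strand), chr7:43579336-43579635 (plus strand), chr16:3743849-3744148 (plus strand) and chr17:32809882-32810181 (minus strand). Capitals mark matches, on either strand, to any of 7 letter patterns named for the factors known to bind such letters: GAAA, any 2 bases and GAAA (interferon response element), GGGA, any 4 bases and CC (NF-kappaB, a shortened form), AAGATGGC (YY1), ACTACA followed by ATTCC (Zfp143), GCGCA, any base and GCGC (NRF1), CCGGAAG (ETS factors) and CCAAT (NFY). No marked match overlaps another in these windows.
Zfp658: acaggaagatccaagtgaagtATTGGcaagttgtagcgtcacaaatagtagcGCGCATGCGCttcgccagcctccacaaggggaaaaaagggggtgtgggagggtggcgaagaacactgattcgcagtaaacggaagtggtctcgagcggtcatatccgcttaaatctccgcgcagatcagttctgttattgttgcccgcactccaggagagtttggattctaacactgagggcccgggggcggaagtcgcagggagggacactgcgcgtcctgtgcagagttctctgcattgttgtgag
Zfp719: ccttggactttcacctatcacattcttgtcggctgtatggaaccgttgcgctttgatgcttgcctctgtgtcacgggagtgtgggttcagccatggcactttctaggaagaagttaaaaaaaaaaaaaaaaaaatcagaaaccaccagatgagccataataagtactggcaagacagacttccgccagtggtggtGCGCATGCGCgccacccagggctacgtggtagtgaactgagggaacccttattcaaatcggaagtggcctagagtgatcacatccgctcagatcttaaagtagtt
Zfp263: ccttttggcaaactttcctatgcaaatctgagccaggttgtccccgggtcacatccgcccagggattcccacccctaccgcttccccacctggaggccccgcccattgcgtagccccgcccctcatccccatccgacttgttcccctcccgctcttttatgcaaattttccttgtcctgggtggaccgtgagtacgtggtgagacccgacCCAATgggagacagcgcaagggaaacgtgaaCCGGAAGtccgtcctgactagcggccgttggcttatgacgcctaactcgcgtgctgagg
Zfp811: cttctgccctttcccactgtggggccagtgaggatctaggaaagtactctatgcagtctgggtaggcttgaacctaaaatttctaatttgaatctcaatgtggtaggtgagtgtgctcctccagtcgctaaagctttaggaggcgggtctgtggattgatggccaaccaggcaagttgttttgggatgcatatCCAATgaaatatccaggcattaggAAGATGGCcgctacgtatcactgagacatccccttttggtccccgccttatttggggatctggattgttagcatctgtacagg
The capitals of Zfp658 are a CCAAT match read on the other strand and the NRF1 pattern, which reads alike on both strands, and those of Zfp719 are the same NRF1 letters. Zfp263 holds a CCAAT and an ETS match, and Zfp811 a CCAAT and a YY1 match. None of these windows holds the interferon or the NF-kappaB pattern, which says only that those letters are not in them. The windows of Zfp523 and Zfp131, which also fell and are not shown, each hold an NF-kappaB match. That form was in 25.8% of the promoters of genes tested.

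Over the 200 members with a listed promoter (1 per gene), 51% held CCAAT, against 37.9% of all 27025 promoters and 39.4% of the 8460 promoters of genes tested. The Zfp143 pattern was in 6 member promoters (3%), against 0.827% of promoters of tested genes, and YY1 in 6%, against 5.26%. ETS (23% and 20.6%) and the NF-kappaB form (23% and 25.8%) were at like shares, whereas the interferon pattern (1.5% and 3.38%) and NRF1 (9.5% and 11.7%) were at lower shares of members than of tested genes. All promoters together held NRF1 in 4.78%, ETS in 9.12%, YY1 in 2.88%, the Zfp143 pattern in 0.307%, the NF-kappaB form in 20.5% and the interferon pattern in 3.49%. The median number of CpG pairs per window was 11 for KRAB members, 19 for other members and 21 for genes tested. These are descriptions of letters, with no test.

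Of the 6 members with the highest levels, those other than Zfp263 did not pass the test. Zfp706, a small protein that represses Klf4 in mouse embryonic stem cells, was highest, at 241, 196 and 218 FPKM in sulfatide libraries and 175, 203 and 183 FPKM in vehicle libraries (log2 fold change 0.22 ± 0.10, adjusted p = 0.157). Zfp207, which loads Bub3 at kinetochores during mitosis, followed at 103 to 115 FPKM in sulfatide and 103 to 110 FPKM in vehicle libraries, where the groups overlapped. The nucleolar protein gene Zfp330 was at 51.4 to 53.8 FPKM in sulfatide and 43.4 to 56.0 FPKM in vehicle libraries. Together with Zfp622, Zfp263 and Zfp91 these made up 25.5% of the summed mean FPKM of all members.

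Zfp91, Zfp598, Zfp622 and Zfp593, named for known roles with ubiquitin or ribosomes, did not pass on deposited FPKM. Zfp91, a ubiquitin ligase that stabilises the kinase NIK in noncanonical NF-kappaB signalling, was at 41.7, 39.1 and 38.1 FPKM in sulfatide libraries, against 35.9, 42.3 and 41.3 FPKM in vehicle libraries. The groups overlapped, and the log2 fold change was -0.00 with a 95% interval of -0.22 to 0.21. It shares 847 exon bases with Cntf on the same strand. Zfp598, the ubiquitin ligase that marks collided ribosomes, was at 17.4, 16.9 and 17.5 FPKM in sulfatide libraries and 19.8, 21.0 and 21.1 FPKM in vehicle libraries. The groups did not overlap, and it did not pass on deposited FPKM (adjusted p = 0.0888) but did after rescaling to TPM (adjusted p = 0.0234). Zfp622 and Zfp593, which act in maturation of the large ribosomal subunit, had log2 fold changes of 0.10 (95% interval -0.12 to 0.32) and -0.09 (-0.32 to 0.14).

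Of the members named for a known role, Zfp638, Zfp106 and Zfp318 did not pass. Zfp638, whose human counterpart silences unintegrated retroviral DNA, averaged 16.7 ± 1.56 FPKM in sulfatide and 15.2 ± 1.73 FPKM in vehicle libraries (SD, n = 3 each). Zfp106, needed by motor neurons and muscle in mice, averaged 16.2 ± 1.42 FPKM in sulfatide and 15.1 ± 0.766 FPKM in vehicle libraries. Zfp318, which controls IgD expression in B cells, averaged 2.26 ± 0.0757 FPKM in sulfatide and 2.09 ± 0.343 FPKM in vehicle libraries. Intervals of the log2 difference reached at most 0.40 and at least -0.21 over these genes.

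Among promoter-binding members, Zfp143, which binds active promoters and takes part in chromatin looping, was at 6.07, 6.91 and 6.33 FPKM in sulfatide libraries and 7.84, 7.20 and 7.41 FPKM in vehicle libraries. Its groups did not overlap, as with its relative Zfp523, but it did not pass (log2 fold change -0.19 ± 0.11, adjusted p = 0.238). Zfp410, an activator of the chromatin remodeller gene Chd4, was at 22.9, 19.7 and 23.4 FPKM in sulfatide and 19.3, 19.6 and 18.9 FPKM in vehicle libraries, without overlap (adjusted p = 0.235). Zfp335, needed for T cell maturation, was at 7.75, 7.82 and 6.99 FPKM in sulfatide and 8.05, 8.44 and 7.91 FPKM in vehicle libraries, also without overlap (adjusted p = 0.525). The GC-box factors Zfp148 and Zfp281 had log2 fold changes of -0.05 and -0.03, Zfp384 of -0.19, Zfp292 of 0.02 and the oncogene Zfp217 of 0.10, and none of these passed. Zfp703, a corepressor studied in breast cancer, was at 4.23, 6.82 and 3.98 FPKM in sulfatide libraries and 6.48, 5.60 and 7.73 FPKM in vehicle libraries. Its value in sulfatide replicate 2 lay inside the vehicle range, and it passed without that library (adjusted p = 0.0379).

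Of the KRAB members with a known target, Zfp809, which silences retroviruses of the murine leukaemia virus type, was at 7.83, 4.90 and 6.65 FPKM in sulfatide libraries, against 2.80, 5.15 and 4.57 FPKM in vehicle libraries. The groups overlapped through sulfatide replicate 2 and vehicle replicate 3, and the log2 fold change was 0.54 with a 95% interval of 0.07 to 1.01 (adjusted p = 0.103, and 0.0479 without vehicle replicate 3). Zfp282 averaged 5.42 ± 0.219 FPKM in sulfatide and 5.85 ± 1.1 FPKM in vehicle libraries. Zfp568, which represses a placental Igf2 transcript, did not exceed 0.92 FPKM, and Zfp57, which maintains imprints, did not exceed 0.25 FPKM, so neither was tested.

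**Figure D4:**
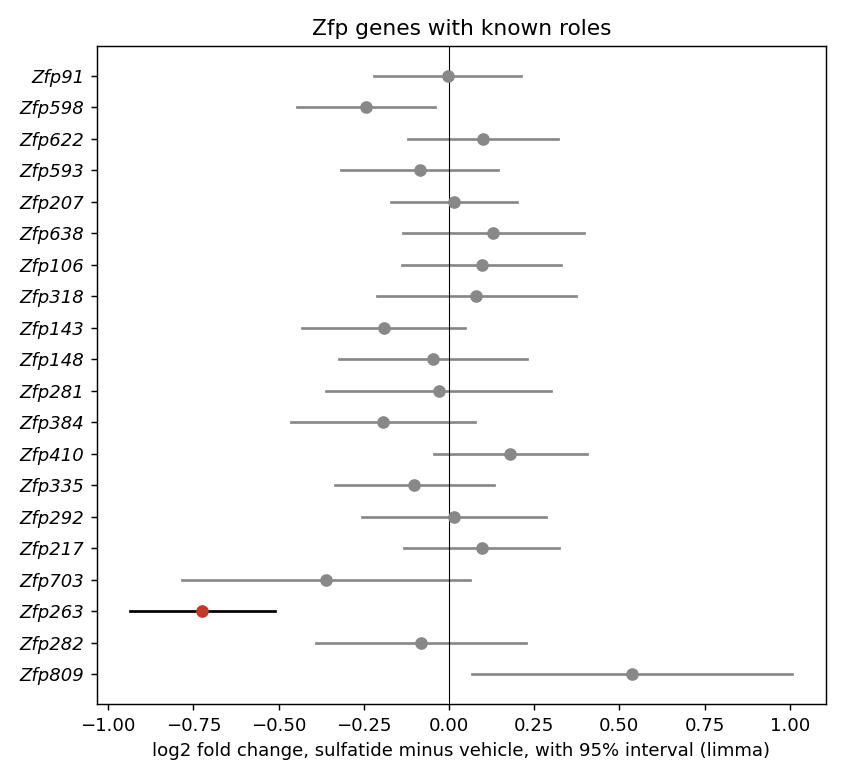
Log2 fold change, sulfatide minus vehicle (horizontal axis, log2(FPKM + 1) scale), with 95% intervals from limma, for 20 tested Zfp genes with known roles, ordered by role from ubiquitin and ribosome factors at the top to KRAB members at the bottom. Zfp263 (red, -0.72) is the gene past the threshold, and Zfp809 has the widest interval, 0.07 to 1.01.

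A KRAB pattern was found in the translated coding sequence of 128 of the 235 members with an annotated one, and of 213 of all Zfp rows with one other than Zfp36, so 60.1% of the KRAB rows and 73.3% of the 146 other rows became members. KRAB members, here those with the pattern, were lower in level, with a median of the mean FPKM of 3.13 and a highest mean of 17.8 FPKM. The 107 others had 6.67 and 203 FPKM, and the median number of fingers was 11 in KRAB members against 7. The pattern misses diverged boxes, such as that of Zfp263 (mean 51.3 FPKM), which is counted among the others here and in the shares below. Of the KRAB members 1 rose and 4 fell (3.91%), and of the others 1 rose and 5 fell (5.61%), against 18.7% of all genes tested. The median log2 fold change was 0.07 in KRAB members (88 positive, 40 negative) and -0.00 in the others (53 positive, 54 negative). After rescaling to TPM the medians were -0.01 (61 positive, 67 negative) and -0.10 (25 positive, 82 negative). The difference of medians was 0.0713 on deposited FPKM and 0.0446 to 0.119 over the other settings. These classes were compared after values were seen, and no test of the difference was made. By library, the mean log2(FPKM + 1) of KRAB members minus that of the others was -0.88, -0.99 and -0.89 in sulfatide replicates 1, 2 and 3, and -0.96, -0.96 and -1.08 in vehicle replicates 2, 3 and 4. Sulfatide replicate 2 lay within the vehicle range, so the groups overlapped. With 13 or more fingers (67 members) the median was 0.02, with 7 to 12 (112 members) 0.06, with 3 to 6 (34 members) 0.00 and with 0 to 2 (22 members) 0.08.

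By position, 60 of the 235 annotated members lie on chromosome 7 (25.5%), 34 on chromosome 17 (14.5%) and 19 on chromosome 13 (8.09%), with median log2 fold changes of 0.00, 0.09 and 0.03. With neighbours joined when their starts lay within 500 kb, 101 members fell into 12 runs of 5 or more. The largest run, on chromosome 17 at 21008903 to 23564238 (mm10), held 19 members, 18 with a KRAB pattern. Of these 12 had positive and 7 negative log2 fold changes, with a median of 0.09, and Zfp945 was its called gene. A second run on the same chromosome, at 32765496 to 33631779, held 10 members and Zfp811. Beside Zfp811 lie Zfp871, at 1.51, 1.52 and 1.86 FPKM in sulfatide and 1.45, 1.53 and 1.80 FPKM in vehicle libraries, and Zfp799, at 1.09, 1.20 and 1.52 FPKM in sulfatide and 1.25, 1.40 and 1.70 FPKM in vehicle libraries. Neither passed (adjusted p = 0.931 and 0.607), and both had overlapping groups. The run on chromosome 13 at 67194506 to 67827002 held 12 KRAB members, 8 positive and 4 negative, and none passed, against 18.7% of all genes tested. The sign counts of these runs are on deposited FPKM and depend on scaling. Over all members 142 were positive on deposited FPKM and 86 after rescaling to TPM. Next to Zfp931 on chromosome 2, Zfp972 was at 2.09, 2.93 and 3.39 FPKM in sulfatide libraries and 2.24, 1.81 and 0.94 FPKM in vehicle libraries (adjusted p = 0.109), with overlap. Zfp971 was at 1.77, 1.71 and 1.11 FPKM in sulfatide and 1.34, 1.57 and 1.42 FPKM in vehicle libraries (adjusted p = 0.869). Of the members 34 share at least 5% of their 100-base stretches with transcripts of other genes, and 1 of these was called (2.94%). Of the 201 that share less, 4.98% were called, against 18.7% of all genes tested.

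**Figure D5:**
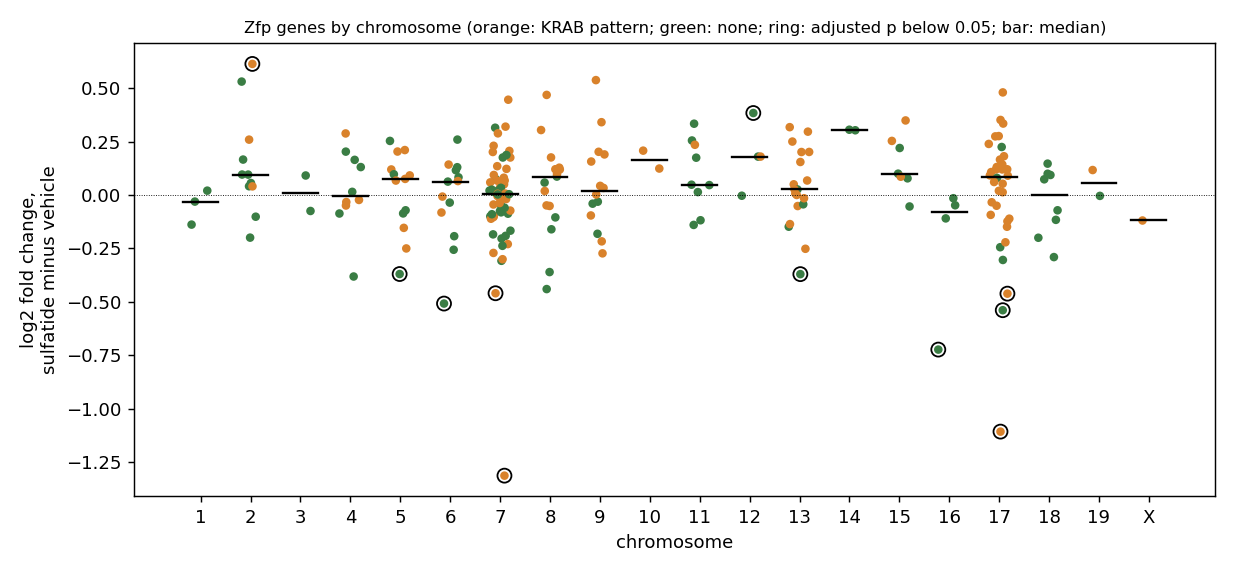
Log2 fold change, sulfatide minus vehicle (vertical axis), of the 235 Zfp members with a position, by chromosome (horizontal axis), in orange with a KRAB pattern and green without; rings mark the 11 called genes and bars the medians. The 60 members on chromosome 7 centre on a median of 0.00, with Zfp658 far below at -1.31.

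The partners through which KRAB proteins act moved at about the background rate. Of 34 tested genes of the corepressor and HUSH list, which holds Trim28, the heterochromatin proteins, histone deacetylases, DNA methyltransferases and the HUSH silencing complex, 3 rose and 3 fell (17.6%, against 18.7% of all genes), with a median log2 fold change of 0.04. Trim28 was at 92.7, 78.0 and 82.0 FPKM in sulfatide and 68.4, 81.2 and 75.9 FPKM in vehicle libraries (adjusted p = 0.288), with overlap, and Setdb1 at 12.8, 12.7 and 14.4 FPKM in sulfatide and 11.9, 12.5 and 12.3 FPKM in vehicle libraries, without overlap (adjusted p = 0.467). Daxx, a histone chaperone, was at 55.1, 51.6 and 61.0 FPKM in sulfatide libraries, against 202, 132 and 196 FPKM in vehicle libraries, and fell 3.16-fold (adjusted p = 0.000211). The heterochromatin protein genes Cbx3 (102.9, 90.0 and 82.6 FPKM in sulfatide and 49.3, 63.3 and 46.7 FPKM in vehicle libraries, adjusted p = 0.00359) and Cbx5 (1.58-fold higher, adjusted p = 0.0054) rose. Morc3 was 1.43-fold lower (adjusted p = 0.00979). The list had 5 members higher without vehicle replicate 3.

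Other zinc finger families were set beside the members. Of 32 tested Zbtb genes, which carry a BTB domain, 0 rose and 3 fell by limma (9.38%, median log2 fold change -0.04), against 8.31% higher and 10.4% lower of all genes, and 1 was higher at an unadjusted p below 0.05. Zbtb7a, a repressor active in many blood lineages, was at 11.7, 17.2 and 12.2 FPKM in sulfatide libraries, against 24.1, 20.8 and 27.5 FPKM in vehicle libraries (adjusted p = 0.00986). Zbtb32 averaged 0.557 ± 0.137 FPKM in sulfatide and 1.64 ± 0.366 FPKM in vehicle libraries (SD, n = 3 each, adjusted p = 0.00873). It reached 1 FPKM in the vehicle libraries alone, so its place among the tested genes and its difference are not independent. Zbtb21 was 1.36-fold lower (adjusted p = 0.0367). Of 13 tested Zkscan and Zscan genes, which carry a SCAN domain, 0 passed by limma, against 18.7% of all genes (median log2 fold change -0.07), although 1 was higher at an unadjusted p below 0.05 and 1 passed without vehicle replicate 3.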

How the data were processed

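RNA of lavage fluid cells was extracted with TRIzol, enriched by poly(A) selection and sequenced as strand-specific paired-end libraries, per the labels' protocols. Reads were placed on mm10 according to the submitters' processing notes. The aligner, the counting program and the gene models used were not given in the sources used here. The authors deposited 1 table of FPKM values, rounded to 2 decimals. Its 3 further value columns matched no sample and were not used. Read counts were not used here, so absolute depth is unknown and no count model was used.

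Values were analysed as log2(FPKM + 1), without rescaling, for the 10405 genes with at least 1 FPKM in at least 3 of 6 libraries, with limma 3.58.1 in R 4.3.3 (lmFit and eBayes with an intensity trend), 2-sided, with Benjamini-Hochberg adjustment over all genes. Log2 fold changes are sulfatide minus vehicle with their standard error, and folds divide the mean FPKM of the groups. The fit was tested on simulated data with known changes. The members and lists were chosen with earlier results of these data known. The genes named are the called members without overlap, up to 12 a direction, the 6 with the highest mean, those nearest the threshold, 22 with known roles and up to 4 called genes of each other list; the neighbours of called genes, Zfp715, Trim28, Setdb1, Etfb and Saa3 were chosen after their values were seen.

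Positions, exon overlap and coding sequences came from GENCODE M21 and promoters from RefSeq (GRCm38.p6). Coding sequences were translated in place of RefSeq proteins. A finger was counted where 2 to 4 residues part 2 cysteines, 12 follow, and 3 to 5 part 2 histidines; KRAB boxes were found by a letter pattern that misses diverged boxes, such as that of Zfp263. Level bands, classes, promoter patterns and the chromosome 7 window were chosen after values were seen. Alternatives were other pseudocounts, filters, scalings and weights, removal of a length trend, a replicate block and leaving out each library.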

Additional observations from a re-analysis of the deposited data

How the results depend on the processing

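Zfp658, Zfp811 and Zfp263 passed under every alternative that tested them (Zfp811 fell below the filter at 5 FPKM), and none of the 11 called genes changed sign. Against 2 members called higher and 9 lower (4.66%), the counts were 1 and 5 of 236 with no filter on low values (2.54%). With a filter at 5 FPKM they were 1 and 5 of the 102 members still tested (5.88%). No called gene that was still tested there lost its call. The counts were 0 higher after rescaling to TPM, 24 and 14 with array weights, and 1 higher after removal of a length trend. Of all genes tested, 18.7% passed in the main fit, 9.44% with no filter on low values and 21.6% with the filter at 5 FPKM. The share was 19.2% after rescaling to TPM, 36.3% with array weights and 18% after removal of a length trend. Leaving out 1 library at a time gave 0 to 6 members higher and 4 to 9 lower, while 8.75 to 24.3% of all genes passed. The median log2 fold change of the members was -0.0444 after rescaling to TPM. Of the corepressor list 2 to 5 genes were higher, and of the Zkscan and Zscan list 0 to 1, when 1 library was left out. Replicate numbers 2 and 3 occur in both groups, and the deviations of same-numbered libraries correlated at 0.156 and -0.303. Those of differently numbered libraries correlated at -0.399 to 0.538. The deviations are from means of 3 libraries, so these few values cannot decide whether same-numbered libraries belong together. With a replicate block on these numbers 0 members were higher and 3 lower (1.27%, against 8.96% of all genes). The median was then 0.00417, and the corepressor list gave 1 higher and 1 lower and the Zbtb list 1 lower. The cause was not tested. A restriction to members averaging at least 1 FPKM in both groups was chosen after seeing the data. Depth in reads is unknown, so counting error of the low members cannot be given.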
